A study of Mus musculus with 18 samples.

Results

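E0771 cells carrying the shCdk8-1 hairpin were compared with cells carrying a control hairpin (cntrl), both kept for 48 h in 1 µM SnxB, by RNA-seq. The comparison rests on 6 of the 18 libraries of the series, chosen by their titles: 3 of shRNA CDK8.1593 and 3 of the non-targeting shRNA Renilla, each with Senexin B. E0771, a line of mouse mammary tumor origin, is used as a model of TNBC, breast cancer that is negative for the estrogen and progesterone receptors and HER2. All cells also carried a firefly luciferase gene driven by the CMV promoter. The hairpins were delivered by a retrovirus with an mCherry marker, and mCherry-positive cells were sorted. The paired groups in DMSO, the solvent of SnxB, and the shCdk8-2 cells in SnxB (shRNA CDK8.1830) serve only for comparison, with 3 libraries in each group. Each hairpin is represented by 1 transduced line, so that effects of the hairpin and differences between lines cannot be told apart. Nothing in the labels says whether the 3 libraries of a group came from separate cultures, and p-values measure the spread between these libraries.

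CDK8 and its paralog CDK19 are kinases that bind Cyclin C, MED12 and MED13 and form with them the kinase module of Mediator, the complex that links transcription factors to RNA polymerase II. SnxB (Senexin B) inhibits the kinase activity of both CDK8 and CDK19. An shRNA lowers the CDK8 mRNA itself, so that a knockdown compared within SnxB asks what loss of the transcript changes when the kinase is already inhibited. In tumor cells, CDK8 is known as a context-dependent regulator of transcription, among others of Wnt targets, interferon-induced genes and genes of the epithelial-mesenchymal transition (EMT).

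The shCdk8-1 SnxB libraries held 16606902 to 18834264 counts and the cntrl SnxB libraries 19271184 to 21978541. Levels are given as CPM (counts scaled to library size), where 3 counts correspond to 0.137 to 0.181 CPM before scaling and lower levels cannot be told from 0. Of the 50686 genes listed, 12772 passed the filter on low counts and were tested. Across these genes, log2 CPM values correlated with r between 0.994 and 0.996 within the groups and between 0.945 and 0.947 across them, which describes genes and not independent replicates. Epithelial markers were low or absent in this mammary line: Krt18 had no count in any of the 6 libraries, and Krt8, Epcam and Cdh1 together reached at most 0.307 CPM in a cntrl library.

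A single count stood apart in these data. Egr1, an immediate early transcription factor, had 8937 counts in replicate 2 of cntrl SnxB and between 4 and 22 counts in the other 17 libraries. The count stands in the deposited table of that library, and no other gene in any group had 1 library more than 20-fold above the next after adding 0.5 CPM to each. The fitted log2 fold change of Egr1 (-8.34) rests on this library, and without it the value was -0.52 (adjusted p = 0.356 in edgeR). DESeq2 gave no adjusted p for it. Egr1 was therefore not read as changed, and counts of genes are given with it as tested, where it adds 1 to the genes called lower. What produced the count was not tested.

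The targeted gene followed its labels. Cdk8 (ENSMUSG00000029635.15, chromosome 5 of GRCm38, from 146231230 to 146302874, plus strand) was at 53.6, 53.9 and 57.3 CPM in the cntrl libraries and at 24.8, 20.1 and 24.4 CPM in the shCdk8-1 libraries. The groups did not overlap, which held for 7788 of the tested genes (61%), and the fit of edgeR gave a log2 fold change of -1.25 with a standard error of 0.0745 (adjusted p = 1.24e-11), so that 57.8% of the transcript was lost. In DMSO, the same line showed -1.39, and the interaction of hairpin and SnxB for Cdk8 did not pass the test (adjusted p = 0.683). Cdk19, on chromosome 10, went the other way. It was at 102, 101 and 95.1 CPM in cntrl and at 139, 124 and 133 CPM in shCdk8-1 cells. Its difference of 0.41 on the log2 scale, with a standard error of 0.0424 (adjusted p = 4.94e-08 by edgeR), passed the test but not the fold threshold. Among the other members of the module, Med13 fell by 0.35 on the log2 scale (adjusted p = 0.0024 by edgeR). Ccnc (-0.03), which encodes Cyclin C, Med13l (-0.10) and Med12 (-0.25, adjusted p = 0.0573) did not pass, and Med12l was too low to be tested.

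The thresholds of the study's methods, more than 2-fold and 0.05 for the adjusted p, decided which genes were called deregulated. By this rule, 1636 of the 12772 genes tested (12.8%) were deregulated, 734 (5.75%) upregulated and 902 (7.06%) downregulated. At the adjusted p alone, 7739 genes (60.6%) passed, 30.5% of all tested genes as higher and 30.1% as lower. Among the upregulated genes, 335 changed more than 4-fold and 122 more than 16-fold, and among the downregulated genes 386 and 138. Of the upregulated genes, 126 had at most 3 counts in each cntrl library and more than 3 in each shCdk8-1 library. In the reverse case, 134 of the downregulated genes had at most 3 counts in each shCdk8-1 library and more than 3 in each cntrl library. Called genes with few counts in both groups are not in these numbers. The 126 and 134 genes passed the filter through libraries outside the group at 3 counts or fewer. They could therefore hardly be called in the other direction, which also holds for such members of the gene lists below. Protein-coding genes made up 667 of the upregulated and 809 of the downregulated genes. The stricter glmTreat of edgeR, in which the null hypothesis is a change of up to 2-fold, left 1059 genes.

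**Figure D1:**
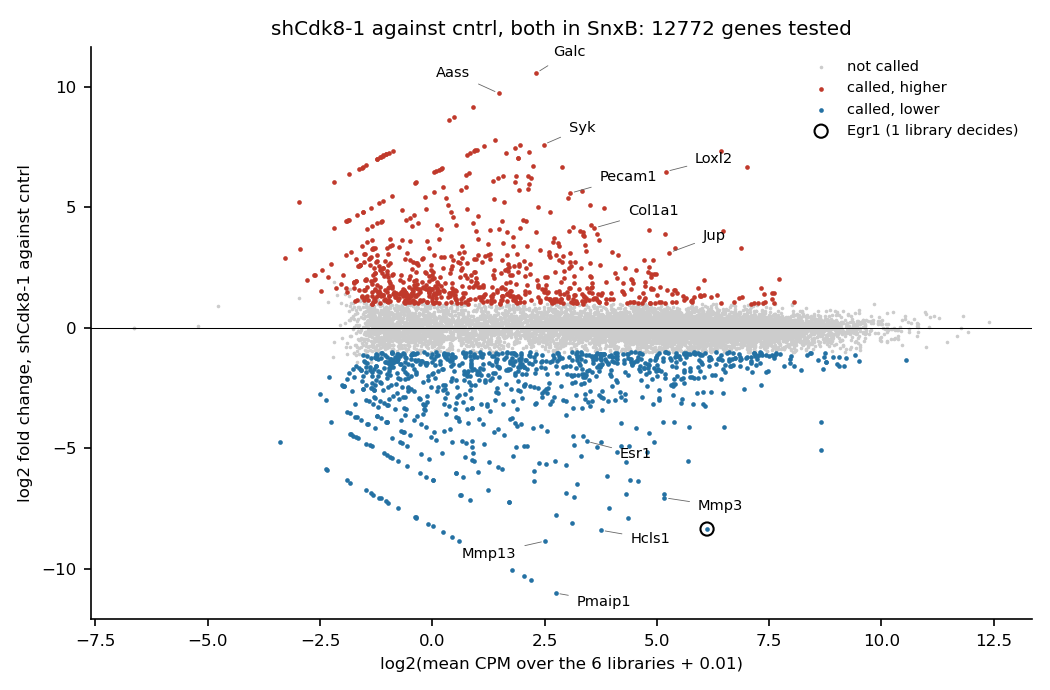
Log2 fold change of shCdk8-1 against cntrl in SnxB (vertical axis) plotted against the log2 of the mean CPM over the 6 libraries plus 0.01 (horizontal axis), with 1 point per tested gene. The 734 upregulated genes are red and the 902 downregulated genes blue, the diagonal rows of points at low levels are genes with few or no counts in one group, and the ring marks Egr1, whose value rests on 1 library.

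The 10 genes with the largest increases were nearly silent in cntrl cells, a trait that ranking by fold change favors. Galc, which encodes the lysosomal galactosylceramidase, had no count in the 3 cntrl libraries and 190, 160 and 191 counts (10.2, 9.51 and 10.1 CPM) in the shCdk8-1 libraries, at least 60.6-fold above 3 counts in a cntrl library. Aass, an enzyme of lysine breakdown, also had no count in cntrl cells and 5.91, 5.17 and 5.60 CPM in shCdk8-1 cells, at least 33.9-fold higher by the same floor. Hhipl1 (2.79 ± 0.264 CPM; SD, n = 3), the deubiquitinase gene Otub2 (2.58 ± 0.506 CPM) and C330018D20Rik (3.74 ± 0.496 CPM) were likewise at 0 counts in every cntrl library and at least 17-, 15.7- and 22.8-fold higher. Galc, Otub2 and Hhipl1 lie on chromosome 12 (98202304 to 98259459, 103388682 to 103406350 and 108306270 to 108328300 of GRCm38). The remaining 5 of the 10 largest increases had 1 to 3 counts in all cntrl libraries together. Wif1, a secreted Wnt inhibitor, was at 4.30, 5.05 and 6.24 CPM against 1 count in cntrl cells, a ratio of 309 with a 95% interval of 55.1 to 12260 that covers counting error only. For Syk, a kinase of immune receptor signaling, the ratio was 220 (74.8 to 1068), for Sh3rf2 229 (62.98 to 1897), for the transcription factor gene Tbx4 261 (46.4 to 10360) and for Krt8, a keratin of simple epithelia, 210 (57.8 to 1743).

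The largest decreases mirrored this pattern. Pmaip1, which encodes the pro-apoptotic protein NOXA, was at 12.9, 14.2 and 13.2 CPM in cntrl libraries and had no count in the shCdk8-1 libraries, at least 75.3-fold lower against the floor of 3 counts in a library. Pcdh12, a protocadherin gene (9.19 ± 1.00 CPM in cntrl; SD, n = 3), was at least 51.5-fold lower, Dkk2, a secreted regulator of Wnt signaling (8.22 ± 1.25 CPM), at least 46.1-fold and Tent5a (6.88 ± 0.133 CPM) at least 38.6-fold, all with 0 counts in shCdk8-1 cells. Strc (at least 16.8-fold), the inhibitory leukocyte receptor gene Lilrb4a (at least 15.1-fold) and the antisense transcript Gm13544 (at least 13.1-fold) were also at 0 counts. Lilrb4a varied in cntrl cells, at 1.58, 2.64 and 3.84 CPM. Mmp13, a collagenase, had 226, 246 and 206 counts in cntrl and 1, 0 and 0 counts in shCdk8-1 libraries, a ratio of 620 (95% interval 111 to 24540). Hcls1, an actin regulator of blood cells, was 366 times lower (142 to 1343) and Gimap6, a GTPase gene of lymphocytes, 309 times lower (105 to 1499). In bulk RNA, fewer cells with a transcript and less transcript per cell cannot be told apart, which holds for all these genes.

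MHC class I molecules present peptides to T cells and restrain NK cells, and several of their genes were lower in shCdk8-1 cells. H2-D1, a heavy chain, was at 587, 584 and 591 CPM in cntrl and at 252, 265 and 252 CPM in shCdk8-1 cells (log2 fold change -1.20 with a standard error of 0.0319, adjusted p = 3.47e-17 by edgeR). H2-K1, the other classical heavy chain of these cells, was at 104, 99.3 and 99.6 CPM against 61.9, 58.2 and 60 CPM (-0.75, adjusted p = 8.99e-11), and B2m, the light chain, fell by 0.98 on the log2 scale, both short of 2-fold. The 2 heavy chain genes are close in sequence, and reads that map to both were left out of the counts. Nlrc5, the transactivator of the class I genes, fell from 75.0 ± 3.32 to 17.2 ± 3.23 CPM (SD, n = 3; log2 fold change -2.12) and Psmb9, an immunoproteasome subunit, from 6.92 ± 0.777 to 1.29 ± 0.218 CPM (-2.42). Of the 17 tested members of the class I list, 3 were called lower and 1, the tapasin homolog Tapbpl, higher (1.02). Over all tested genes, 7.06% were called lower and 5.75% higher. The call of Tapbpl was lost with glmTreat and without replicate 1 of cntrl (0.95) or replicate 2 of shCdk8-1 (0.95). At the adjusted p alone, 12 members were lower, 1 was higher and 4 did not pass, while 30.1% of all tested genes were lower and 30.5% higher. The list median was -0.27, against 0.0099 over all tested genes.

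Ligands that NK and T cells recognize changed in both directions. Of 15 tested, 6 were called lower and 2 higher, against 7.06% and 5.75% of all tested genes. The list median was -0.51. Raet1d, a ligand of the activating NK receptor NKG2D, was at 41.2, 44.0 and 40.3 CPM in cntrl and at 13.3, 14.4 and 15.6 CPM in shCdk8-1 cells (log2 fold change -1.53 with a standard error of 0.068). Raet1e also fell by 1.53 on the log2 scale, but the annotated spans of these genes overlap on chromosome 10 and their counts may not be independent. Cd274, which encodes the checkpoint ligand PD-L1, was at 5.24, 4.87 and 5.43 CPM against 1.94, 1.90 and 2.06 CPM (-1.39, adjusted p = 1.44e-07 by edgeR). Icam2, an adhesion ligand of leukocytes, was 62.2 times lower (95% interval 10.8 to 2494), with 1 count left in 3 libraries, and Cd40 (-1.17) and Nectin2 (-1.06) were also called lower. Icam1, a ligand of the integrin LFA-1, rose from 1.09, 1.85 and 1.43 CPM to 3.33, 3.39 and 4.02 CPM (1.27, adjusted p = 3.01e-06), and Tnfsf10, the death ligand TRAIL, rose by 2.30. With glmTreat, 5 of these ligands were called, and Icam1 was not among them.

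**Figure D2:**
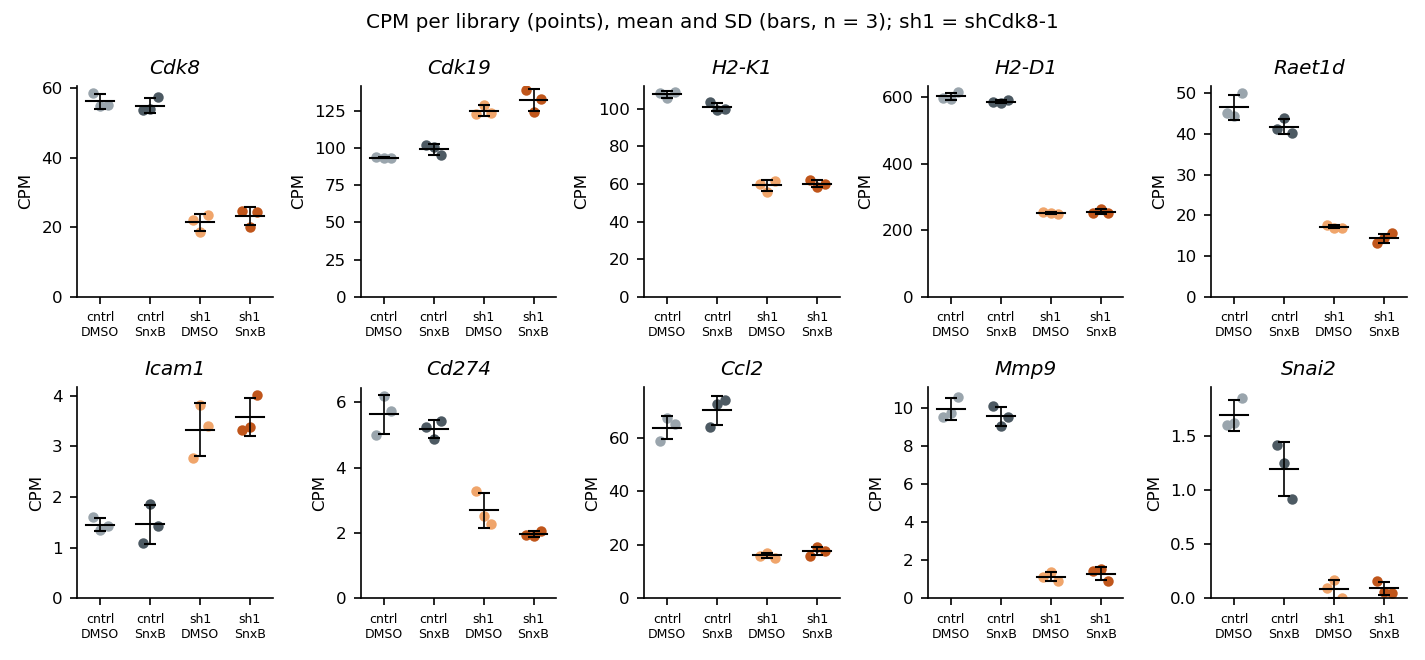
CPM (vertical axes, each from 0) of 10 genes taken from the study, in the cntrl and shCdk8-1 cells (sh1) in DMSO and in SnxB, with a point per library, the mean as a bar and the SD as whiskers (n = 3). Raet1d stands for RAE1, which the study measured as protein with a pan antibody. In SnxB the shCdk8-1 bar is higher than the cntrl bar for Cdk19 and Icam1 and lower for the other genes, as in DMSO.

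Chemokines and growth factors had the lowest median of the 16 lists (-1.90). Of 11 tested members, 7 were called lower and 1 higher, against 7.06% and 5.75% of all tested genes. Ccl2, a chemoattractant of monocytes, was at 63.8, 72.7 and 74.0 CPM in cntrl and at 15.96, 19.2 and 17.8 CPM in shCdk8-1 cells (log2 fold change -1.99 with a standard error of 0.079, adjusted p = 1.79e-14 by edgeR). Its neighbors on chromosome 11, Ccl7 (92.0, 111 and 107 CPM against 14.7, 17.6 and 15.7 CPM) and Ccl8 (1.63 ± 0.291 against 0.180 ± 0.133 CPM), fell by 2.70 and 3.10 on the log2 scale. Il33, an alarmin cytokine, fell by 2.19, Lif by 2.15, Cx3cl1 by 1.90 and Csf1, the macrophage growth factor, by 1.18. Cxcl16 was the member called higher (1.37, adjusted p = 0.0332), at 0.256 ± 0.139 CPM in cntrl and 0.658 ± 0.137 CPM in shCdk8-1 cells. That call was lost with glmTreat and without replicate 1 (1.28) or 2 (1.04) of cntrl or replicate 1 (1.20) or 3 (1.39) of shCdk8-1. Vegfa was higher by less than 2-fold (0.46), and Cxcl10 (0.15) and Ccl5 (0.26) did not pass the test.

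Interferon-stimulated genes were called only in the upward direction, with a median of 0.80. Of 24 tested, 11 were higher and 0 lower, against 5.75% and 7.06% of all tested genes. At the adjusted p alone edgeR found 17 higher and 2 lower, as many as at an unadjusted p under 0.05. Over all tested genes, 30.5% and 30.1% passed the adjusted p as higher and lower. DESeq2 called 11 of the 24 as well. Mx1, an antiviral GTPase, was at 0.218, 0.232 and 0.154 CPM in cntrl and at 1.61, 1.37 and 1.48 CPM after the knockdown (log2 fold change 2.84, adjusted p = 2.19e-06 by edgeR). Mx2, its paralog, had 5 counts in all cntrl libraries together and was 6.56 times higher (95% interval 2.52 to 21.6). Oasl2 rose from 1.05 ± 0.189 to 5.38 ± 1.37 CPM (2.36), and the RNA sensor Ifih1 (1.49), Usp18 (1.41), the transcription factor Irf7 (1.33) and Ifit1 (1.32) were also called. The transcription factor genes Stat2 (0.08) and Irf1 (0.03) did not pass, while Irf9 rose by 0.48, short of 2-fold. Socs1, an inhibitor of the pathway, fell by 0.39 and Oas1a by 0.60. With glmTreat, 4 of the interferon-stimulated genes were called, and the count was 8 without replicate 2 of cntrl.

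Genes best known from leukocyte signaling moved in both directions. Of 18 tested, 7 were called lower and 3 higher, against 7.06% and 5.75% of all tested genes. The list median was -0.21. Vav1, a guanine nucleotide exchange factor, was at 6.66, 5.80 and 7.12 CPM in cntrl and had 1, 0 and 1 counts in shCdk8-1 libraries, 177 times lower (95% interval 48.6 to 1464). Coro1a, an actin regulator, fell from 4.41 ± 0.595 to 0.405 ± 0.0252 CPM (log2 fold change -3.43), Lcp1 by 3.39, Ptk2b, a focal adhesion kinase, by 3.18, the integrin chain gene Itgb2 by 2.63 and Lcp2 by 1.58. Prkcb was 32.0 times lower (8.54 to 270). Syk was higher as given above, and Plcg2, a phospholipase, rose from 1.26 ± 0.202 to 6.24 ± 0.393 CPM (2.30) and Rac3 by 1.64. Leukocyte markers were scarce in both groups. Cd3e and Ncr1 had no count in the 6 libraries, Ptprc, which encodes CD45, was at 0.371 to 0.546 CPM in cntrl and at 0 to 0.0594 CPM in shCdk8-1 cells, and only Lyz2 of the 8 markers was tested (-0.88, not called; called without replicate 1 of cntrl, at -1.08). Summed over the list, these markers were at 3.77 to 5.70 CPM in cntrl and 2.10 to 2.14 CPM in shCdk8-1 libraries, and their part in the lower leukocyte genes was not tested.

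Regulators and markers of EMT moved mostly downward, by less than 2-fold. Snai2, a transcription factor that represses epithelial genes, had 26, 27 and 18 counts in cntrl and 3, 1 and 1 in shCdk8-1 libraries, 12.99 times lower (95% interval 5.32 to 41.2). Zeb1 (-0.72), Twist1 (-0.64), Twist2 (-0.53), Zeb2 (-0.48) and Prrx1 (-0.43) were lower without reaching 2-fold, and Snai1 was higher (0.39). Cdh1, the epithelial cadherin, had 0, 3 and 5 counts in cntrl and 17, 17 and 12 after the knockdown (2.60, adjusted p = 4.81e-04 by edgeR). The epithelial factor Grhl2 was called lower (-2.58). S100a4, a calcium-binding protein of mesenchymal cells, was at the threshold, from 210.3 ± 23.9 to 105 ± 16.9 CPM, a 2-fold decrease, and its call was lost without replicate 2 of cntrl (-0.91) or replicate 1 of shCdk8-1 (-0.88). Of 12 tested members, 3 were called lower and 1 higher, against 7.06% and 5.75% of all tested genes. The list median was -0.55, and glmTreat called 2 members, without Grhl2 and S100a4. The intermediate filament gene Vim, a mesenchymal marker, was at 4149 CPM in cntrl and 3691 CPM in shCdk8-1 cells, a log2 difference of -0.17.

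Keratins and junction genes were called higher in 4 cases and lower in 1 of 8 tested, against 5.75% and 7.06% of all tested genes. A further 17 members of that list were too low to be tested. Krt8 and Pkp1 had at most 3 counts in each cntrl library and passed the filter through other libraries. They could therefore hardly be called lower, and the count of higher members depends in part on the filter. Beside Krt8, Jup, which encodes plakoglobin, was at 10.2, 6.77 and 7.22 CPM in cntrl and at 73.6, 67.5 and 67.6 CPM in shCdk8-1 cells (log2 fold change 3.12 with a standard error of 0.0967, adjusted p = 3.80e-16 by edgeR). The desmosomal plakophilin gene Pkp1 was 26.6 times higher (95% interval 8.75 to 132) and Pkp3 rose by 1.03 on the log2 scale. Ocln, which encodes the tight junction protein occludin, fell by 1.33. Krt18, the usual partner of Krt8, stayed at 0 counts in all 6 libraries, and Epcam had 0 counts in cntrl and 1, 8 and 3 counts in shCdk8-1 libraries.

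Matrix proteases on chromosome 9 had some of the largest decreases. Beside Mmp13, Mmp3 was at 76.0, 71.8 and 66.6 CPM in cntrl and at 0.215, 0.832 and 0.582 CPM in shCdk8-1 cells (log2 fold change -7.05 with a standard error of 0.1895, adjusted p = 4.10e-17 by edgeR), and Mmp10 fell from 3.65 ± 0.752 to 0.0893 ± 0.112 CPM (-5.21). These genes lie between 7272514 and 7510240 of that chromosome in GRCm38. The shCdk8-1 mean of Mmp10 was below the level of 3 counts in a library, so the size of its fall is uncertain. Mmp9, a gelatinase on chromosome 2, was at 10.1, 9.09 and 9.58 CPM against 1.45, 1.54 and 0.899 CPM (-2.89), and Plat, the tissue plasminogen activator, fell by 2.76. The gelatinase gene Mmp2 went up, from 19.7, 15.8 and 17.7 to 46.9, 46.6 and 44.7 CPM (1.38). In all, 5 of 16 tested members were called lower and 1 higher, against 7.06% and 5.75% of all tested genes. The inhibitor genes Timp1 (-0.30) and Timp2 (-0.29) were lower by less than 2-fold.

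Collagens and matrix glycoproteins were called higher in 10 of 22 cases and lower in 2, against 5.75% and 7.06% of all tested genes. The list median was 0.77. Loxl2, a collagen cross-linking enzyme, was at 0.710, 0.696 and 1.02 CPM in cntrl and at 74.3, 70.3 and 73.9 CPM in shCdk8-1 cells (log2 fold change 6.48 with a standard error of 0.0848, adjusted p = 8.65e-22 by edgeR). Col1a1, a chain of type I collagen, rose from 1.32 ± 0.559 to 23.1 ± 1.81 CPM (4.14), Thbs2, a thrombospondin, from 4.62 ± 0.740 to 67.6 ± 4.41 CPM (3.88), and Thbs1 was 70.3 times higher (95% interval 32.0 to 193). Tnc, which encodes tenascin C, fell from 18.4 ± 3.35 to 2.73 ± 0.338 CPM (-2.74) and Col6a3 from 210, 117 and 137 CPM to 27.0, 21.3 and 23.1 CPM (-2.69). Col3a1, Col4a1, Col4a2 and Col18a1 were lower by less than 2-fold (-0.98 to -0.73). Fibroblast markers did not rise as a group: the receptor genes Pdgfra (352 to 236 CPM, -0.57) and Pdgfrb (315 to 181 CPM, -0.80) were lower, Dcn was called higher (1.58), and Lum was too low to be tested. The 4 markers summed to 632 to 728 CPM in cntrl and 392.2 to 445 CPM in shCdk8-1 libraries, and their part in the matrix genes was not tested.

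**Figure D3:**
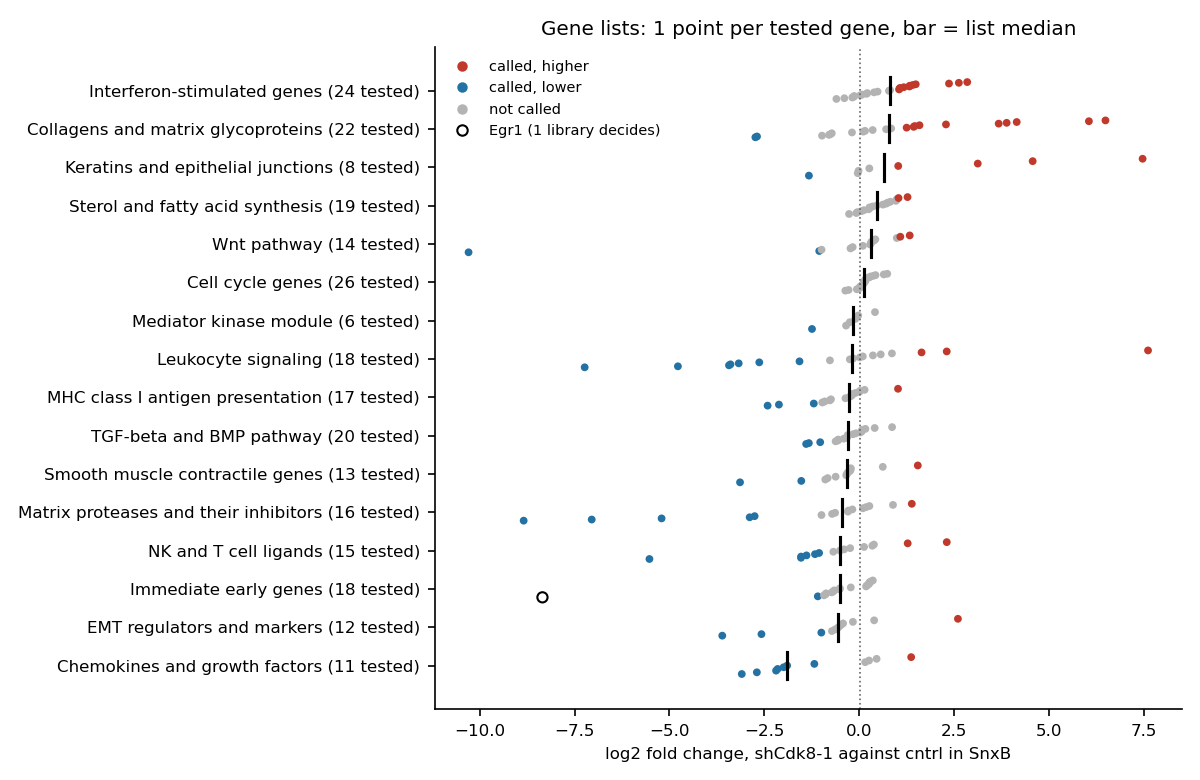
Log2 fold change of shCdk8-1 against cntrl in SnxB (horizontal axis) for each tested member of 16 gene lists (rows, ordered by their median), with a point per gene, the list median as a black bar and the median of all tested genes (0.0099) as a dotted line. Interferon-stimulated genes are called only as higher, chemokines and growth factors have the lowest median (-1.90), and cell cycle genes stay close to the dotted line.

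In the TGF-β and BMP pathway, 3 of 20 tested genes were called, a share near the 12.8% of all tested genes. The receptor gene Tgfbr2 fell from 92.3 ± 4.58 to 34.9 ± 1.71 CPM (log2 fold change -1.40), the latent TGF-β binding protein gene Ltbp1 from 87.9 ± 0.490 to 34.99 ± 1.06 CPM (-1.33) and Gdf15 by 1.03. The call of Gdf15 was lost without replicate 3 of cntrl (-0.99) or replicate 2 of shCdk8-1 (-0.97). In the Wnt pathway, Fzd2, a Wnt receptor (1.33), and the ligand gene Wnt7b (1.08) were called higher among 14 tested. Dkk2 and the ligand gene Wnt10a (-1.05) were called lower. Over all tested genes, 5.75% were called higher and 7.06% lower. The target gene Axin2 rose by 0.32 and Ctnnb1, which encodes β-catenin, by 0.99, both short of 2-fold. The call of Wnt10a was lost without replicate 3 of cntrl (-0.97) or replicate 2 (-0.93) or 3 (-0.97) of shCdk8-1. Of the 17 immediate early genes other than Egr1, only Atf3 was called (-1.09). At the adjusted p alone, 10 were lower and 3 higher, against 30.1% and 30.5% of all tested genes. The calls of Wnt7b, Wnt10a, Gdf15 and Atf3 were lost with glmTreat. Jun (-0.87), Fosl2 (-0.89) and Ier3 (-0.93) were among the lower immediate early genes.

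Smooth muscle contractile genes were called in 3 of 13 cases, against 12.8% of all tested genes. At the adjusted p alone, 11 members were lower and 2 higher, against 30.1% and 30.5% of all tested genes. The list median was -0.33. Mylk, the myosin light chain kinase, fell from 54.4 ± 4.28 to 6.16 ± 0.562 CPM (log2 fold change -3.14) and Synpo2 by 1.53, while Lmod1 was called higher at low counts (1.54, adjusted p = 0.0445 by edgeR). Lmod1 had 2, 2 and 1 counts in cntrl and 4, 3 and 7 in shCdk8-1 libraries, and its call was lost with DESeq2 (1.60) and without any cntrl replicate (1.73, 1.62 and 1.31) or without replicate 1 (1.67) or 3 (1.16) of shCdk8-1. Of the 26 cell cycle genes, edgeR called 0, and the median was 0.13. At the adjusted p alone, 13 were higher and 1, Ccnd1, lower, against 30.5% and 30.1% of all tested genes. At an unadjusted p under 0.05, 15 cell cycle genes were higher and 2 lower, and DESeq2 also called 0. Sterol synthesis genes were mostly higher by less than 2-fold. Lss, the lanosterol synthase, rose from 70.0 ± 2.88 to 169 ± 7.30 CPM (1.27) and Cyp51 by 1.03. At the adjusted p alone, 14 of 19 members were higher, against 30.5% of all tested genes, and the median was 0.46. With glmTreat, the calls of Synpo2, Lmod1 and Cyp51 were lost. The count of called sterol genes rose from 2 to 5 without replicate 1 of cntrl, without replicate 1 of shCdk8-1 or with library totals in place of TMM.

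Among hormone and HER2 receptors, Pgr had no count in the 6 libraries and Erbb2, which encodes HER2, differed little (55.8 ± 4.28 against 49.9 ± 3.63 CPM; log2 fold change -0.16). Esr1, the estrogen receptor gene, was readable in cntrl cells at 24.2, 18.2 and 20.1 CPM and nearly lost in shCdk8-1 cells at 1.18, 0.475 and 0.687 CPM (-4.70 with a standard error of 0.186, adjusted p = 1.74e-14 by edgeR). Endothelial markers moved apart. Pecam1 rose from 0.335 ± 0.0325 to 16.5 ± 1.01 CPM (5.58), Cdh5 fell from 2.31 ± 0.334 to 0.245 ± 0.157 CPM (-3.24), and Kdr and Tek were too low to be tested.

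The same lines without the inhibitor share no library with the SnxB comparison and show whether a difference was also found without SnxB. Whether its size differed with SnxB is the question of the interaction test below. In DMSO, 1598 genes (12.5%) were deregulated, 5.37% of all tested genes as higher and 7.14% as lower. Of the genes called in SnxB, 1391 (85.0%) were also called in DMSO, all of them in the same direction, and these were 87.0% of the genes called in DMSO. The other 245 genes called in SnxB had a median absolute log2 fold change of 1.19 in SnxB and 0.83 in DMSO, 225 of them had the same sign in DMSO, and 4 passed the test of the interaction. The lines are the same in both comparisons, so that a difference between lines would appear in both. Among the lists in DMSO, chemokines and growth factors had 7 called lower and 0 higher (median -1.81), interferon-stimulated genes 10 higher and 0 lower (0.66) and class I genes 4 lower and 0 higher (-0.29).

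**Figure D4:**
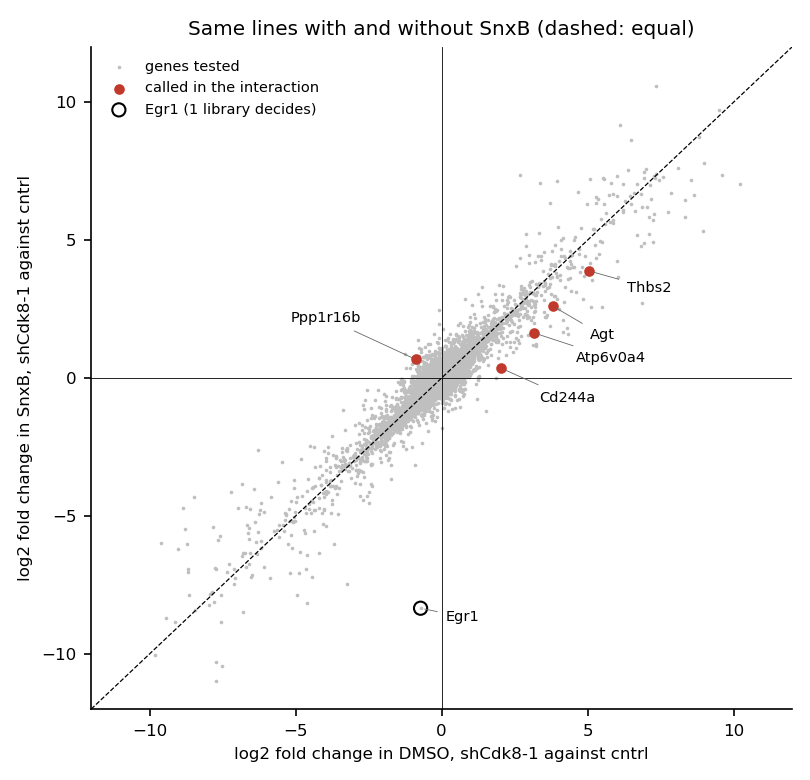
Log2 fold change of shCdk8-1 against cntrl in SnxB (vertical axis) against that in DMSO (horizontal axis), with 1 point per tested gene and a dashed line where both are equal. Most genes lie along the line, the 5 genes called in the interaction are red, and the ring marks Egr1, whose value in SnxB rests on 1 library.

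The interaction test asks whether the difference between shCdk8-1 and cntrl cells was itself different with SnxB. It called 5 genes (0.0391%), 4 with a lower value in SnxB (0.0313%) and 1 with a higher one (0.00783%), and 39 (0.305%) passed at the adjusted p alone. Atp6v0a4, a subunit of the vacuolar proton pump, was at 0.739, 0.758 and 0.783 CPM in cntrl cells in DMSO and at 2.84, 2.46 and 2.97 CPM in SnxB, while shCdk8-1 cells were at 6.10, 7.52 and 7.28 CPM in DMSO and at 7.74, 8.97 and 8.88 CPM in SnxB. The knockdown difference was thus 3.18 in DMSO and 1.63 in SnxB (interaction -1.54 with a standard error of 0.223, adjusted p = 0.00304 by edgeR). Thbs2 showed 5.06 in DMSO and 3.88 in SnxB (interaction -1.18, adjusted p = 0.00324), with cntrl libraries at 1.60, 2.82 and 2.15 CPM in DMSO and at 5.41, 3.94 and 4.51 CPM in SnxB.

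Agt, which encodes angiotensinogen, differed by 3.80 in DMSO and 2.61 in SnxB (interaction -1.19, adjusted p = 0.0209 by edgeR), and Cd244a, an NK cell receptor gene, by 2.05 and 0.35 (interaction -1.69, adjusted p = 0.0188). Cd244a was at 0.739, 0.379 and 0.930 CPM in cntrl and 3.10, 2.68 and 2.79 CPM in shCdk8-1 cells in DMSO, and at 1.53, 1.21 and 1.43 against 1.67, 1.90 and 1.74 CPM in SnxB. Ppp1r16b, a regulatory subunit of protein phosphatase 1, changed sides: shCdk8-1 libraries were lower in DMSO (1.74, 1.99 and 1.91 against 4.19, 3.52 and 2.74 CPM) and higher in SnxB (3.60, 4.28 and 3.91 against 2.40, 2.41 and 2.56 CPM; interaction 1.55, adjusted p = 0.00869). The calls of Agt and Cd244a were lost without replicate 2 of cntrl DMSO (adjusted p = 0.0587 for both by edgeR) and without replicate 1 (0.0648 and 0.0623) or 3 (0.0766 and 0.0518) of cntrl SnxB, and that of Agt also without replicate 3 of cntrl DMSO (interaction -0.97, adjusted p = 0.116). With glmTreat, 0 genes were called in the interaction, and 35 had an unadjusted p under 0.05. Ccl7 passed at the adjusted p alone (interaction -0.89, adjusted p = 0.00304), with cntrl libraries at 36.3, 42.9 and 44.1 CPM in DMSO against 92.0, 111 and 107 CPM in SnxB, and shCdk8-1 libraries at 11.4, 12.5 and 11.5 CPM in DMSO.

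**Figure D5:**
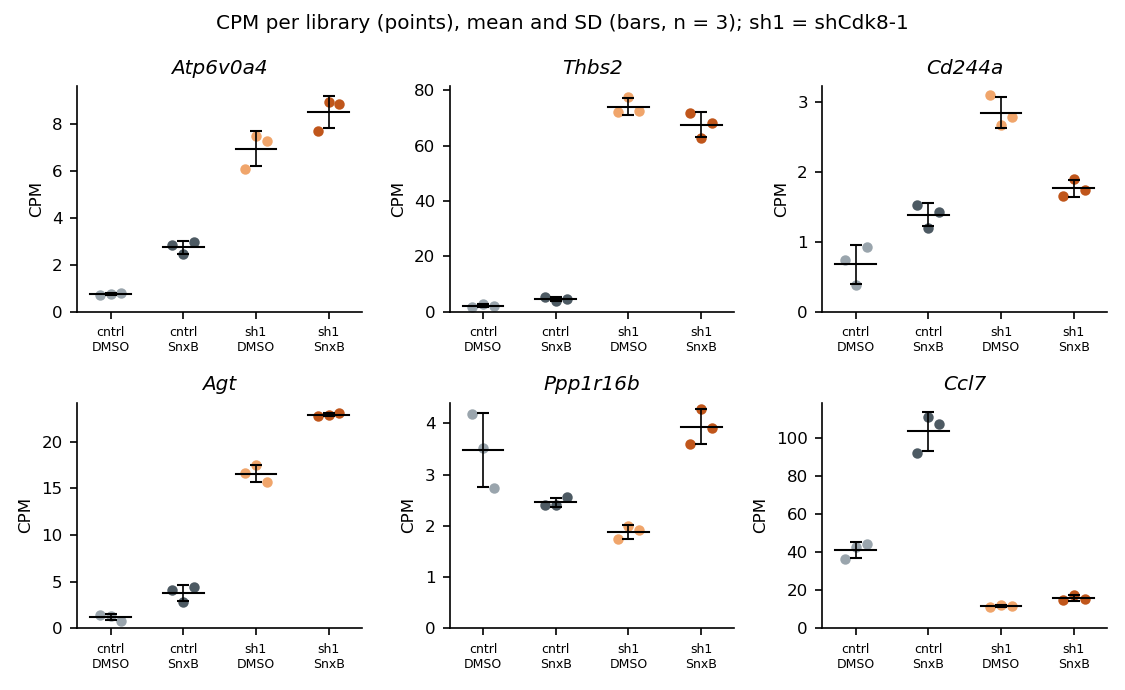
CPM (vertical axes, each from 0) of the 5 genes called in the interaction and of Ccl7, in cntrl and shCdk8-1 cells (sh1) in DMSO and in SnxB, with a point per library, the mean as a bar and the SD as whiskers (n = 3). For Atp6v0a4, Thbs2, Agt and Cd244a the gap between the lines is smaller in SnxB on the log2 scale, for Ccl7 it is larger, and for Ppp1r16b it changes sign.

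The shCdk8-2 cells in SnxB, set against the same cntrl libraries, allow only a reading side by side. There Cdk8 fell by 0.48 on the log2 scale, and 1379 genes (10.8%) were deregulated. Several genes that were absent in shCdk8-1 cells kept a readable level in shCdk8-2 cells: Pmaip1 was at 1.62 CPM, Pcdh12 at 1.22 CPM and Strc at 0.497 CPM, while Dkk2 had no count in either line. The fitted log2 fold changes for shCdk8-1 and shCdk8-2 were -1.20 and -0.98 for H2-D1, -0.75 and -1.47 for H2-K1, -1.53 and -1.23 for Raet1d, -1.39 and -0.81 for Cd274, 1.27 and 2.15 for Icam1, -1.99 and -1.47 for Ccl2 and -2.89 and -1.14 for Mmp9. For Cdk19 the values were 0.41 and 0.21, and for Esr1 -4.70 and -4.31. List medians were -1.90 and -1.35 for chemokines and growth factors and 0.80 and 0.86 for interferon-stimulated genes. They were further apart for collagens and matrix glycoproteins (0.77 and 0.10) and for sterol and fatty acid synthesis (0.46 and 0.20). Of the latter list, 2 genes were called in shCdk8-1 and 0 in shCdk8-2 cells. The differences between the 2 hairpin lines were not tested here.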

How the data were processed

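Per the file headers and the study's methods, the authors trimmed single-end reads (Trimmomatic), aligned them to GRCm38 (STAR, GENCODE M13) and assigned them to genes with featureCounts 1.5.1, counting exons with strand and leaving out reads that map to several places. The deposited values are raw read counts per gene, 1 column for each of 18 libraries. Gene symbols came from GENCODE M21 and matched 50462 of 50686 genes.

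Counts were analysed in R 4.3.3 with edgeR 4.0.16. Genes were kept by filterByExpr (minimum count 10, minimum total 15), TMM gave the scaling, and the quasi-likelihood test (glmQLFit, glmQLFTest) used all 18 libraries with 1 coefficient per group and Benjamini-Hochberg adjustment. CPM values are TMM-scaled. A standard error is the log2 fold change divided by the square root of F. Folds against groups with no counts use a floor of 3 counts in a library, and ratios against groups with at most 3 counts in each library have exact binomial intervals, which cover counting error only. In simulated counts with 200 genes changed 4-fold, 200 were recovered with 1 false call among 12523 genes (SnxB comparison). The changed genes were drawn from those above 1 CPM and all others were left unchanged. The recovery therefore does not extend to genes at lower levels or to smaller changes.

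Alternatives were DESeq2 1.42.0, other scalings, filters, thresholds and library sets, a replicate block and each library left out. The fit without the Egr1 row was added after seeing the data. Named genes were those the study names, the 10 largest changes in each direction with at least 1 CPM and no overlap, the 3 largest called members of each list in each direction, the genes called in the interaction and cell type markers; other list members were named after their values were seen. Raet1d was taken for RAE1, which the study names as a protein. The comparison and lists were chosen with earlier results of these data known. Coordinates are as in the files. The hairpin numbers in the labels and the hairpin sequences in the methods point to opposite orders along the Cdk8 transcript, which was not settled, and the labels were used. Some genes of the lists are not reported here by name.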

Additional observations from a re-analysis of the deposited data

Results flagged for a closer look

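For the 5 genes called in the interaction and for Ccl7, the difference between shCdk8-1 and cntrl cells itself differed between SnxB and DMSO by the interaction test in edgeR (adjusted p under 0.05). The log2 fold change in SnxB minus that in DMSO was -1.19 for Agt, -1.54 for Atp6v0a4, -0.89 for Ccl7, -1.69 for Cd244a, -1.18 for Thbs2 and 1.55 for Ppp1r16b. Col3a1, lower in SnxB by less than 2-fold, also passed this test (-0.30). So did the list members Col6a2 (-0.36), Tgfb2 (0.58) and Acta2 (-0.31). In all, 39 genes passed it at the adjusted p alone, with Adm (-0.73) and Cbr2 (-0.62) at the smallest adjusted p.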

How the results depend on the processing

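With shCdk8-1 in SnxB, 1636 genes were called, 1648 to 1696 with each library left out and 1332 to 2058 with DESeq2, other scalings, filters, an adjusted p under 0.01 or the compared groups alone. Leaving out the Egr1 row gave 1635. The counts moved by more than 1.5 times with glmTreat (1059 in SnxB, 1064 in DMSO, 834 for shCdk8-2, 0 in the interaction) and at the adjusted p alone (7739, 7615, 7235 and 39). The interaction count of 5 also moved to 15 without a filter, 3 with the compared groups alone, 3 at an adjusted p under 0.01 and 3 to 5 with each library left out. The counts in DMSO and for shCdk8-2 were 1596 to 1667 and 1382 to 1406 with each library left out. Cdk8 stayed between -1.29 and -1.17. Replicate numbers did not pair the libraries by the data (correlations of same-numbered deviations 0.011, 0.092 and -0.024 in SnxB), and a replicate block in the fit gave counts of 1635 in SnxB, 1598 in DMSO, 5 in the interaction and 1376 for shCdk8-2. No called gene among those named reversed. Ccnc, not called, turned from -0.03 to 0.02 with library totals and to 0.01 without shCdk8-1 SnxB replicate 1. Of 91 further named genes, 13 lost a call in at least 1 alternative, Egr1 among them without replicate 2 of cntrl SnxB. For Egr1 and for the other results that moved, the cause was not tested. Depth limits genes at 3 counts or fewer in a library.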

Other observations

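The median log2 fold change of shCdk8-1 against cntrl in SnxB was not the same on each chromosome. It was -0.35 over the tested genes of chromosome 18 and -0.20 over those of chromosome 8, and 0.27 on chromosomes 12 and 16, against 0.0099 over all genes. Chromosome 10 was at 0.12, and the other chromosomes were between -0.08 and 0.05. In DMSO, the values were -0.33, -0.20, 0.29 and 0.27 for chromosomes 18, 8, 12 and 16, in other libraries of the same lines. For shCdk8-2 against the same cntrl libraries in SnxB, they were -0.346, -0.242, 0.354 and 0.300. All these comparisons share the cntrl line, so a shift in cntrl cells cannot be told from one in the hairpin lines. Chromosomes 10 (-0.025) and 19 (0.215) of shCdk8-2 differed from those of shCdk8-1. These medians are descriptions without a test, and their cause was not tested.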
